A study of Drosophila melanogaster with 18 samples.

Results

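The Ras-ERK-ETS pathway carries signals from receptor tyrosine kinases at the cell surface to transcription factors in the nucleus, and the genes described here are 10 of its components in Drosophila: Egfr, drk, csw, Sos, phl, Dsor1, ksr, cnk, pnt and aop. All probe sets of these genes were taken by current gene symbol or by the symbol on the array platform's table, and pnt, which has no name on that table, was read from the probe set that the tables of the study call pnt. Of the 10 genes, 9 were measured, each by 1 matched probe set, so the members were 9 of the 18769 probe sets tested. The kinase gene phl, listed as Raf in RefSeq, had no probe set matched by name and was not analysed here. The list of genes was chosen with earlier results of these data known. It did not itself use the measured values, with an exception for pnt. The tables of the study that name it list genes that changed between genotypes, among them Pnt RNAi against the control, so this unnamed probe set could be found because it changed, and an unnamed probe set of phl could not. The values and tests of pnt are therefore a description, and its call is not independent of how it was found. Transcripts were measured on 18 Affymetrix Drosophila Genome 2.0 arrays, and each array held RNA from the complete CNS of 20 wandering larvae of the third instar raised at 25 °C. Each of 6 genotypes had 3 arrays, and the labels do not say whether the 3 came from separate crosses, so p-values measure the spread between these arrays.

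Every genotype carried nsybGal4, a driver of expression in neurons. The control was nsybGal4/+ with no UAS transgene. TFAM overexpression (TFAM o/e) carried UAS-TFAM3M, a transgene for the mitochondrial transcription factor TFAM, which the study used to disturb mitochondria in neurons. Pnt RNAi carried the UAS hairpin #JF02227 and Aop RNAi carried the UAS hairpin #3166R1. The genotype TFAM o/e, Pnt RNAi carried UAS-TFAM3M with the Pnt hairpin, and the genotype TFAM o/e, Aop RNAi carried it with the Aop hairpin. The RNA came from the whole CNS, which also holds glia and neuroblasts that do not express the driver, so a change limited to neurons would be a smaller change in this RNA. In bulk tissue, fewer cells of a type and less RNA per cell cannot be told apart.

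In this pathway a ligand-bound receptor such as Egfr recruits the adaptor Drk, which brings the exchange factor Sos to the membrane, where Sos loads Ras with GTP. The phosphatase Csw acts beside this step. Ras then starts a kinase cascade, in which Raf phosphorylates the MAPK kinase Dsor1 and Dsor1 phosphorylates the ERK kinase Rolled, with Ksr and Cnk as scaffolds that hold the kinases together. In the canonical model, which need not hold in every tissue, ERK finally phosphorylates a pair of antagonistic ETS transcription factors. The activator Pointed (pnt) is switched on, and the repressor Yan, product of anterior open (aop), is removed from the DNA and degraded. In the nervous system the pathway is best known for its part in the fates of photoreceptors and glia. Much of this control acts on proteins, which the arrays do not measure.

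The data were log2 signals made by the authors with MAS5. Array medians lay between 5.03 and 5.56, and the share of probe sets under log2 5 was 46.4% to 49.7% per array. TFAM averaged 10.58 in the control, 10.45 in Pnt RNAi and 10.63 in Aop RNAi, whereas it averaged 12.08 with TFAM o/e alone, 12.15 with Pnt RNAi added and 12.10 with Aop RNAi added, so these values went with the TFAM labels. The markers of neurons (6 of 7 matched), glia (5 of 6) and neuroblasts (6 of 6) had summed levels that varied little, although the neuron marker VGlut, at 2.76 to 5.55, was near background. The summed log2 levels of the 3 lists ranged from 12.77 to 13.21, from 13.66 to 14.09 and from 12.32 to 12.99 over the 18 arrays. The markers of tissues that adjoin the CNS varied more, from 9.95 to 13.48 for the ring gland (5 of 6 matched) and from 10.46 to 13.86 for the fat body (3 of 5 matched). Precision is limited by the small number of arrays.

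Of the 9 probe sets, pnt differed among the 6 genotypes and no other passed the test. The level of pnt in every array with a Pnt RNAi label, with or without TFAM o/e, exceeded that in all other arrays, which is the opposite direction to the knock-down that the labels name. The probe set of aop ranged from 10.28 upward by 0.72 over the 18 arrays, and no difference of it was called, also not in those labelled Aop RNAi. Whether either probe set lies in the part of the transcript matched by its hairpin is not known here, so neither checks the knock-down. Genotypes are therefore called by their labels, on which the directions of both knock-downs depend. The gene y, given with the genes most like pnt, was 10.58 or higher in the 6 arrays with a Pnt RNAi label and 7.31 or lower in the other 12. The labels do not name y, which was also picked by its likeness to pnt, so this is a description and does not check the labels. In the test for any difference among the 6 genotypes (limma's moderated F, threshold of 0.05 on the Benjamini-Hochberg adjusted p), 1 of 9 members was called, pnt, against 0.783% of all probe sets. The F of pnt was 13.1 (limma adjusted p = 0.00476), rank 66 of the 18769 probe sets. At an unadjusted p under 0.05, pnt was again the 1 member that passed, against 6.49% of all probe sets. The adjusted p of the other 8 members in this test was at least 0.998. The name of pnt came from tables of changed genes, so nothing is read from its shares beside all probe sets.

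**Figure D1:**
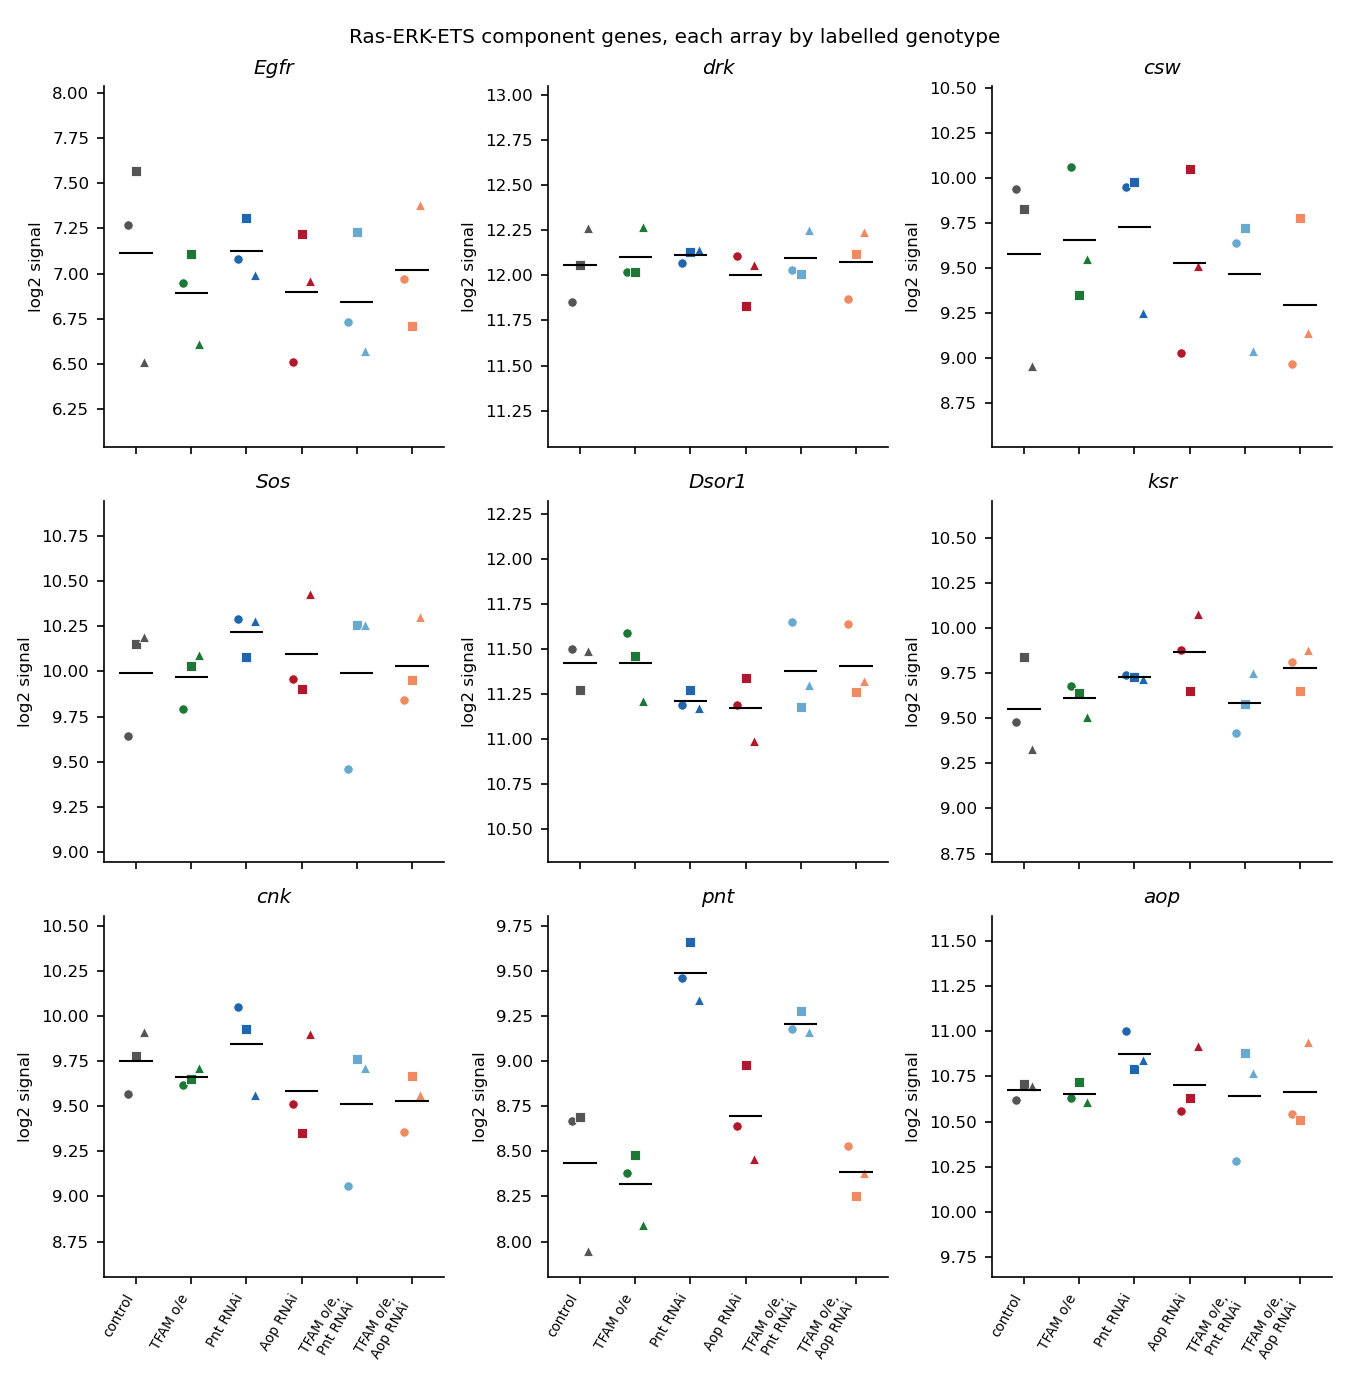
Log2 signal of the 9 measured members in each of the 18 arrays (vertical axes, each spanning 2 log2 units) by labelled genotype (horizontal axis); circles, squares and triangles are replicates 1, 2 and 3 and bars are means of 3 arrays. The 6 arrays with a Pnt RNAi label lie between 9.16 and 9.66 for pnt, above the other 12 arrays, and the genotypes overlap for most pairs in the other panels.

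Egfr, the receptor for the ligands Spitz, Keren, Gurken and Vein, had the lowest signal of the 9 probe sets, a mean of 6.98 over the 18 arrays. Signals of different probe sets depend on their probes and say nothing of the order of transcript amounts between genes. Egfr was 7.27, 7.57 and 6.51 in the control arrays, and its genotype means ranged from 6.84 in TFAM o/e, Pnt RNAi to 7.13 in Pnt RNAi. The spread within a genotype (pooled SD 0.35) exceeded this range of means, 0.28, and all genotypes overlapped. No difference of Egfr was called, and its log2 fold change from the control ranged from -0.27 in TFAM o/e, Pnt RNAi (95% interval -0.87 to 0.32) to 0.01 in Pnt RNAi (interval -0.59 to 0.61).

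The adaptor drk, which links the activated receptor to Sos, was the brightest member, with a mean of 12.07, and the steadiest. Its 18 values lay between 11.83 and 12.27, and its genotype means differed by 0.11 at most. Its log2 fold changes from the control lay between -0.06 in Aop RNAi (95% interval -0.36 to 0.24) and 0.06 in Pnt RNAi (interval -0.24 to 0.36). Its probe set is of the kind (suffix _s_at) whose probes may also match other transcripts, as is that of aop.

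The phosphatase gene csw varied most within genotypes, with a pooled SD of 0.44. It was 9.94, 9.83 and 8.96 in the control, 10.06, 9.35 and 9.55 in TFAM o/e, and 9.95, 9.98 and 9.25 in Pnt RNAi. In Aop RNAi it was 9.03, 10.05 and 9.51, in TFAM o/e, Pnt RNAi 9.64, 9.72 and 9.04, and in TFAM o/e, Aop RNAi 8.97, 9.78 and 9.14. Low and high arrays occurred in every genotype, and all genotypes overlapped. For csw the data could show only large differences. Its intervals were the widest of the 9 members, for example -1.0 to 0.29 around a log2 fold change of -0.36 for TFAM o/e, Aop RNAi against TFAM o/e.

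The exchange factor gene Sos was 9.64, 10.15 and 10.19 in the control, 9.79, 10.03 and 10.09 in TFAM o/e, 10.29, 10.08 and 10.28 in Pnt RNAi, and 9.96, 9.90 and 10.43 in Aop RNAi. With both transgenes it was 9.46, 10.26 and 10.26 (TFAM o/e, Pnt RNAi) and 9.84, 9.95 and 10.30 (TFAM o/e, Aop RNAi). The lowest arrays were the replicates numbered 1 of the control and of TFAM o/e, Pnt RNAi. The largest log2 fold change from the control was 0.22 in the arrays labelled Pnt RNAi (95% interval -0.22 to 0.67, limma adjusted p = 0.855), and no difference was called.

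The MAPK kinase gene Dsor1, the only measured kinase of the cascade among the members, was 11.50, 11.27 and 11.49 in the control, 11.59, 11.46 and 11.21 in TFAM o/e, 11.19, 11.27 and 11.17 in Pnt RNAi and 11.19, 11.34 and 10.99 in Aop RNAi. It was 11.65, 11.18 and 11.30 in TFAM o/e, Pnt RNAi and 11.64, 11.26 and 11.32 in TFAM o/e, Aop RNAi. The arrays labelled Pnt RNAi touched the lowest control array and those labelled Aop RNAi overlapped it. Its log2 fold changes from the control were -0.21 in Pnt RNAi (95% interval -0.53 to 0.11) and -0.25 in Aop RNAi (interval -0.57 to 0.07), and neither passed the test (limma adjusted p = 0.804 and 0.941).

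Of the scaffold genes, ksr was 9.48, 9.84 and 9.33 in the control and 9.88, 9.65 and 10.08 in the arrays labelled Aop RNAi. It was 9.81, 9.65 and 9.88 in TFAM o/e, Aop RNAi, 9.68, 9.64 and 9.51 in TFAM o/e, 9.74, 9.73 and 9.72 in Pnt RNAi, and 9.42, 9.58 and 9.75 in TFAM o/e, Pnt RNAi. Replicate 2 of the control lay within the range of the Aop RNAi arrays, so these groups overlapped. The log2 fold change of ksr in Aop RNAi against the control was 0.32 (95% interval 0.01 to 0.63, unadjusted p = 0.041 and adjusted p = 0.833 from limma). Averaged over the backgrounds with and without TFAM o/e it was 0.24 (interval 0.03 to 0.46, unadjusted p = 0.0284 and adjusted p = 0.93 from limma), which also did not pass. The difference from the control was 0.21 without the control replicate 3 and 0.47 without the control replicate 2, and it ranged between these on leaving out the other arrays. The other scaffold gene, cnk, had genotype means from 9.51 in TFAM o/e, Pnt RNAi to 9.85 in Pnt RNAi. Its largest difference was between these groups, -0.34 (95% interval -0.73 to 0.06, limma adjusted p = 0.824), and its arrays of 10.05, 9.93 and 9.56 in Pnt RNAi overlapped those of 9.06, 9.76 and 9.71 in TFAM o/e, Pnt RNAi.

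The ETS activator gene pnt was 8.67, 8.69 and 7.95 in the control, 8.38, 8.48 and 8.09 in TFAM o/e, and 9.46, 9.66 and 9.34 in the arrays labelled Pnt RNAi. It was 8.64, 8.98 and 8.46 in Aop RNAi, 9.18, 9.28 and 9.16 in TFAM o/e, Pnt RNAi, and 8.53, 8.25 and 8.38 in TFAM o/e, Aop RNAi. The 6 arrays with a Pnt RNAi label, 9.16 or higher, did not overlap the other 12, the highest of which was 8.98. The control replicate 3 was the lowest array of all for pnt. The signal of pnt rose in Pnt RNAi against the control, by 1.05 on the log2 scale (SE 0.19, 95% interval 0.65 to 1.45, limma adjusted p = 0.017), which is 2.07-fold. Averaged over the backgrounds with and without TFAM o/e, pnt was higher with the Pnt RNAi label by 0.97 (SE 0.13, interval 0.69 to 1.25, limma adjusted p = 0.000822), or 1.96-fold. With TFAM o/e in both groups, TFAM o/e, Pnt RNAi exceeded TFAM o/e by 0.89 (SE 0.19, interval 0.49 to 1.29, adjusted p = 0.091 from limma), which did not pass. TFAM o/e, Pnt RNAi exceeded the control by 0.77 (SE 0.19, interval 0.37 to 1.17, limma adjusted p = 0.127).

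The call for Pnt RNAi against the control rested on few arrays. It was lost on leaving out the control replicate 3 (0.81, limma adjusted p = 0.0792) and on leaving out any one of the 3 Pnt RNAi arrays (0.96 to 1.12, adjusted p of 0.0547 to 0.121). It was also lost with no intensity trend in the fit (limma adjusted p = 0.0822) and with the spread taken from the 6 arrays compared alone (limma adjusted p = 0.354), at the same difference of 1.05. The averaged difference stayed past the threshold with each of its 12 arrays left out in turn, at 0.85 to 1.03 and an adjusted p of at most 0.00522 from limma. Same-numbered arrays deviated together between TFAM o/e, Pnt RNAi and either the control or TFAM o/e, but not in every pair of genotypes. With the replicate number as a block, both comparisons were called for pnt, at an adjusted p of 0.0289 against the control and 0.0208 against TFAM o/e (limma). Quantile normalization also brought both past the threshold (0.81 and 0.92, limma adjusted p = 0.0228 and 0.0185). No call was made for the interaction of TFAM o/e with the Pnt RNAi label on pnt, which was -0.16 (SE 0.27, interval -0.72 to 0.40, limma adjusted p = 0.961).

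Markers of other tissues moved with some of these arrays. The summed fat body markers (Lsp2, Fbp1 and Fbp2, each well above 0 in all arrays) ranged from 11.47 to 13.86 in Pnt RNAi and from 10.69 to 13.64 in TFAM o/e, Pnt RNAi, against 10.61 to 11.65 in the control and 10.46 to 12.03 in TFAM o/e. Without the 2 arrays of highest fat body signal, replicate 1 of Pnt RNAi and replicate 2 of TFAM o/e, Pnt RNAi, the averaged difference of pnt was 0.96 (limma adjusted p = 0.0142), and the difference of Pnt RNAi from the control was 1.06 and no longer called (limma adjusted p = 0.121), nor was pnt called in the test over the 6 genotypes. With the fat body level of each array as a covariate the averaged difference was 0.88 (adjusted p = 0.0076), and with the ring gland level as a covariate it was 0.87 (adjusted p = 0.000313, both from limma). The difference of Pnt RNAi from the control was 0.94 with the fat body covariate and was not called (limma adjusted p = 0.0839), and 0.89 with the ring gland covariate and was called (limma adjusted p = 0.0148). These settings were chosen after the data were seen.

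The ETS repressor gene aop was 10.62, 10.71 and 10.70 in the control, 10.63, 10.72 and 10.61 in TFAM o/e, and 10.56, 10.63 and 10.92 in the arrays labelled Aop RNAi. In Pnt RNAi it averaged 10.88, with no array under 10.79. It was 10.28, 10.88 and 10.77 in TFAM o/e, Pnt RNAi, and 10.54, 10.51 and 10.94 in TFAM o/e, Aop RNAi. The arrays labelled Aop RNAi surrounded the control arrays on both sides. The log2 fold change of aop in Aop RNAi against the control was 0.03 (SE 0.16, 95% interval -0.30 to 0.35, limma adjusted p = 0.995), and in TFAM o/e, Aop RNAi against TFAM o/e it was 0.01 (interval -0.32 to 0.34). Averaged over both backgrounds it was 0.02 (interval -0.21 to 0.25), which runs from 0.86-fold to 1.19-fold on the linear scale. The log2 fold change of aop in Pnt RNAi against the control was 0.20 (95% interval -0.13 to 0.53), which did not pass (limma adjusted p = 0.821). In RefSeq (Release 6) the gene CG15382 overlaps the start of aop and the RNA gene lncRNA:CR46090 lies inside pnt. Which of these transcripts the probes match was not tested.

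**Figure D2:**
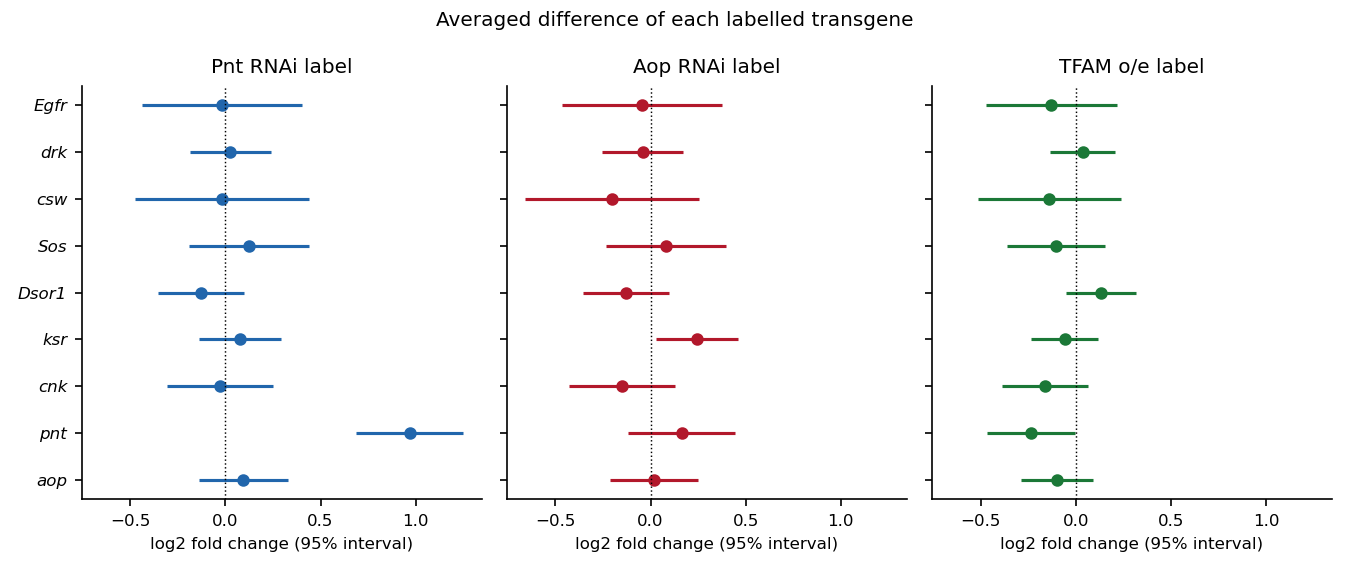
Averaged log2 fold change of each member (points) with its 95% interval (bars) for the arrays with a Pnt RNAi label (over the backgrounds with and without TFAM o/e), with an Aop RNAi label (over the same backgrounds) and with TFAM o/e (over 3 backgrounds). The interval of pnt, 0.69 to 1.25 in the left panel, lies apart from 0, and those of ksr in the middle panel and pnt in the right panel end close to 0.

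The counts of members called followed from pnt, whose name came from a table of changed genes, so nothing is read from its share beside the background. In Pnt RNAi against the control 1 of 9 members was called, against 0.293% of all probe sets, and the same member was the 1 that passed an unadjusted p under 0.05, against 7.24%. For Pnt RNAi averaged over both backgrounds the counts were again 1 of 9 by either rule, against 0.304% and 6.78% of all probe sets. Where TFAM o/e, Pnt RNAi was compared with the control (0.325% of all probe sets called) or with TFAM o/e (0.16%) no member was called, and at an unadjusted p under 0.05 pnt passed in both, against 8.49% and 4.6% of all probe sets. The median log2 fold change of the 9 members in Pnt RNAi against the control was 0.15, against -0.01 over all probe sets. In TFAM o/e, Pnt RNAi against Pnt RNAi their median was -0.23, against -0.01 over all probe sets. No member was called there (0.139% of all probe sets) or passed an unadjusted p under 0.05 (6.26%). Both comparisons share the Pnt RNAi arrays, so the median in one is tied to the median in the other. Some members also moved together between arrays, so nothing is read from these medians. The interaction of TFAM o/e with Pnt RNAi had no member called (0.0266% of all probe sets) and none at an unadjusted p under 0.05 (4.42%).

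For the Aop RNAi label no member was called against the control (0.176% of all probe sets were), against TFAM o/e with TFAM o/e in both groups (0.0959%) or averaged over both backgrounds (0.197%). At an unadjusted p under 0.05, ksr passed against the control and in the average, against 5.73% and 4.87% of all probe sets, and no member passed with TFAM o/e in both groups (3.41%). TFAM o/e, Aop RNAi against the control also had no member called (0.229% of all probe sets) and none at an unadjusted p under 0.05 (6.11%). The median of the members was -0.05 in Aop RNAi against the control and 0.02 over all probe sets.

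For TFAM o/e no member was called against the control (0.181% of all probe sets), and none passed an unadjusted p under 0.05 (5.53%). Their log2 fold changes lay between -0.23 for Egfr and 0.08 for csw. On the Aop RNAi background TFAM o/e had no member called (0.208%) and none at an unadjusted p under 0.05 (4.42%), and its interaction with Aop RNAi had none by either rule (0.0533% and 3.99% of all probe sets). Averaged over the 3 backgrounds no member was called for TFAM o/e (0.543% of all probe sets), and at an unadjusted p under 0.05 pnt passed, against 7.64%. That difference of pnt was -0.24 (SE 0.11, 95% interval -0.47 to -0.01, unadjusted p = 0.045 and adjusted p = 0.645 from limma). It was -0.12, -0.28 and -0.31 on the control, Pnt RNAi and Aop RNAi backgrounds. The arrays of TFAM o/e, Pnt RNAi were at 9.16 to 9.28 and those of Pnt RNAi at 9.34 to 9.66.

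By the unpaired test and thresholds of the methods (unadjusted p under 0.05 and 1.5-fold), pnt was the only member that passed in any of the 9 pairwise comparisons. It passed in Pnt RNAi against the control and where TFAM o/e, Pnt RNAi was compared with the control and with TFAM o/e; in these, 3.38%, 3.52% and 3.03% of all probe sets passed. After Benjamini-Hochberg adjustment of that test none of the 9 comparisons called a member.

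Some pairs of members moved together and others in opposite directions within genotypes, that is, in the deviation of each array from the mean of its own 3 arrays. Of 36 pairs, 19 had a Pearson r above 0 and 17 below 0. Among the pairs of largest r, over the 18 arrays the deviations of Sos went with those of aop (Pearson r 0.86) and cnk (0.78) and against those of Dsor1 (-0.78). The deviations of pnt went with those of Egfr (0.77) and against those of drk (-0.74). These are descriptions of arrays that share their processing, and with 3 arrays per genotype the deviations of a genotype sum to 0. They followed the replicate number in part. The replicates numbered 3 lay below the mean of their genotype for pnt and csw in 6 of 6 genotypes, and above it for drk and Sos in 6 of 6. The summed ring gland markers (dib, sad, nvd, spok and Akh, none of them at 0) were also lowest in the replicate numbered 3 of each of the 6 genotypes, from 9.95 to 12.11 against 11.50 to 13.48 in the other replicates. Their deviations had an r of 0.71 with pnt, -0.78 with Sos and -0.73 with drk, and their part in the members' spread was not tested. Of the other tissues, muscle (2 of 5 markers matched, Mlc2 at 0 in at least 1 array) had an r of 0.81 with pnt and -0.86 with drk, and the salivary gland (6 of 6 matched) 0.67 and -0.80. Cell types of the CNS itself also had large values. The neuroblast markers had an r of -0.81 with Dsor1 and 0.63 with Sos, the neuron markers 0.62 with pnt, and the glia markers -0.49 with Dsor1. The part of these cell types and tissues in the members' spread was not tested. The labels do not say what a replicate number shares.

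**Figure D3:**
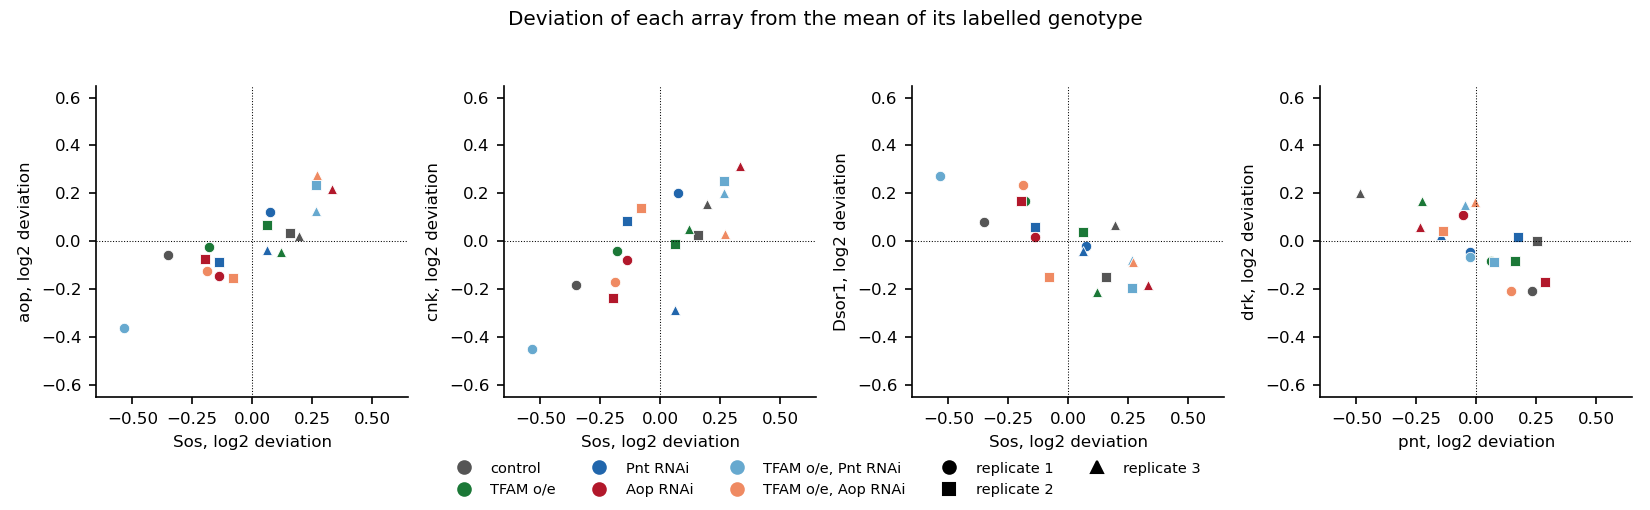
Deviation of each of the 18 arrays from the mean log2 signal of its labelled genotype for 4 pairs of members (both axes in log2 units); colours are genotypes and circles, squares and triangles are replicates 1, 2 and 3. Sos rises with aop (r 0.86) and cnk (r 0.78) and falls with Dsor1 (r -0.78), and drk falls as pnt rises (r -0.74), with all triangles on the same side of 0 for Sos, for pnt and for drk.

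The 5 probe sets most like pnt over the 18 arrays, by Pearson r among 7464 probe sets with 1 symbol and a mean log2 of at least 6, were CG43117 (r 0.90), IntS12 (0.88), Rb97D (0.87), y (0.85) and CG6013 (0.83). IntS12 encodes a subunit of the Integrator complex, Rb97D an RNA-binding protein, and y the pigmentation protein Yellow, used as a visible marker in fly stocks. CG43117 was 5.75, 7.28 and 6.06 in the control and 8.73, 8.30 and 8.21 in Pnt RNAi, and averaged 8.03 in TFAM o/e, Pnt RNAi and 5.68 in TFAM o/e. Its rise with the Pnt RNAi label averaged 2.20 (SE 0.22, limma adjusted p = 1.63e-05). The signal of y lay between 10.95 and 11.03 in Pnt RNAi and averaged 10.72 in TFAM o/e, Pnt RNAi, and 5.07, 5.93, 6.42 and 6.87 in the control, TFAM o/e, Aop RNAi and TFAM o/e, Aop RNAi. IntS12 and Rb97D were also called in this average, with differences of 0.75 (SE 0.14, limma adjusted p = 0.0223) and 0.80 (SE 0.17, adjusted p = 0.0485). CG6013 was not (0.43, SE 0.10, adjusted p = 0.115). All 5 were highest with the Pnt RNAi label, as likeness to pnt requires. Their differences and calls for this label are therefore a description, not independent of how the genes were picked.

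Of these 5 genes, 4 (CG43117, IntS12, Rb97D and CG6013) lie on the same chromosome arm as pnt in RefSeq, where 25.2% of 7446 such probe sets with a placed gene lie. IntS12 and Rb97D are near each other, with 3 genes between them. These genes were picked by their values, so nothing is read from their share on this arm. None of the 5 is among the 5 protein-coding genes on either side of pnt. Of those 10 neighbours 9 were measured, and none was called for the Pnt RNAi label. The nearest on the 2 sides, bb8 and PolE1, had averaged differences of -1.06 (SE 0.55, limma adjusted p = 0.768, at signals of 4.02 or less on average in every genotype) and -0.01 (SE 0.13, adjusted p = 0.999).

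**Figure D4:**
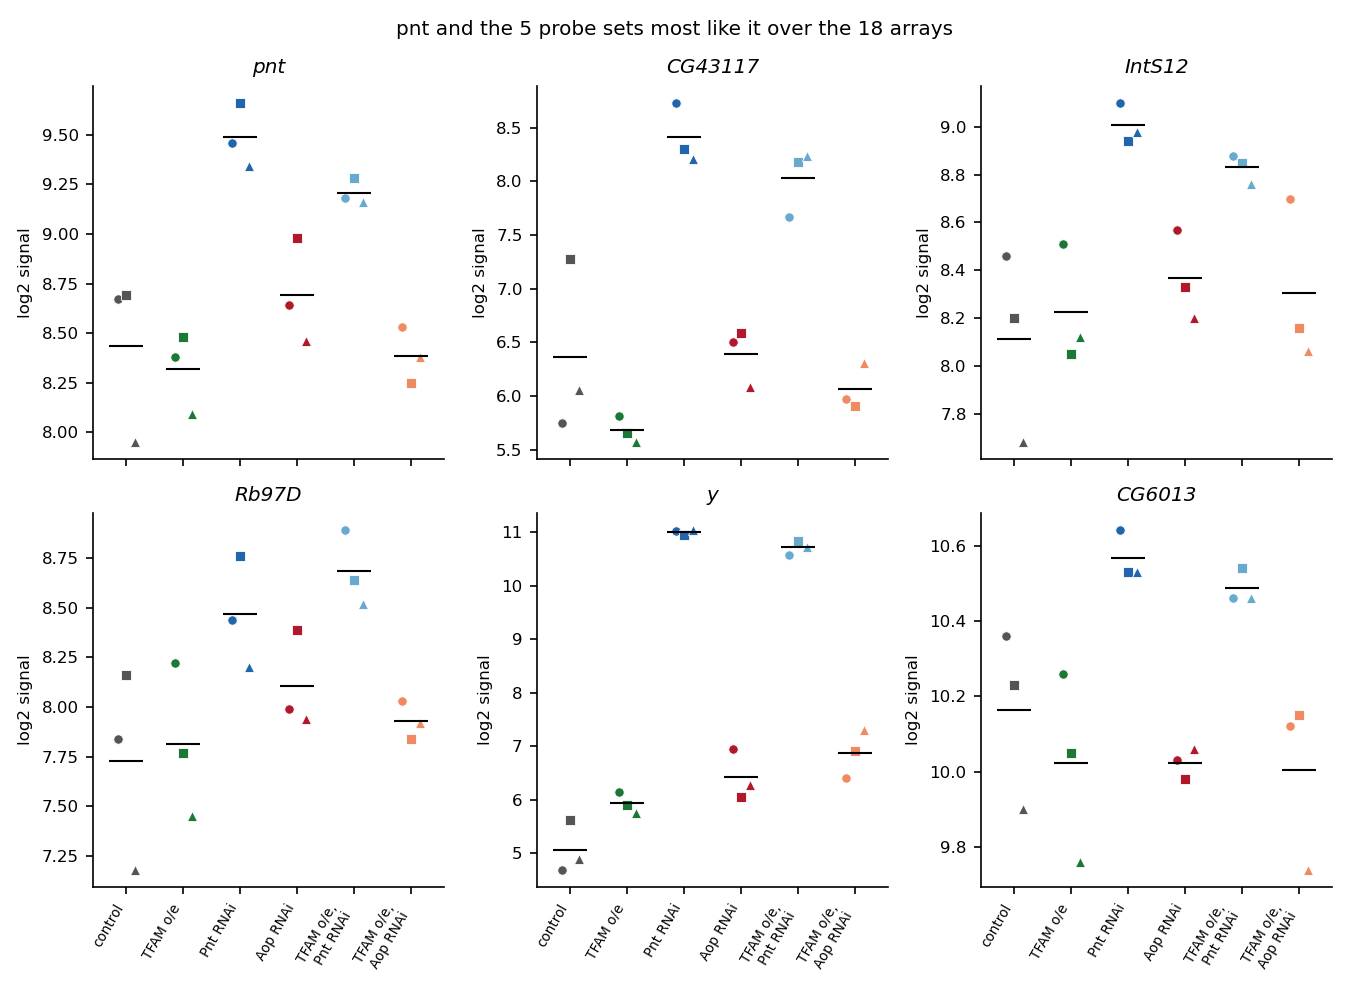
Log2 signal (vertical axes, which differ between panels) of pnt and of the 5 probe sets with the highest Pearson r to it, by labelled genotype (horizontal axis); circles, squares and triangles are replicates 1, 2 and 3 and bars are means of 3 arrays. In all 6 panels the 2 genotypes with a Pnt RNAi label have the highest means, such as 10.57 and 10.49 for CG6013.

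The 5 probe sets most like aop were gcm (r 0.92), mew (0.92), mTor (0.89), mus81 (0.89) and Rnb (0.88). The gene gcm encodes the glial cell fate factor Glial cells missing, mew an integrin subunit, mTor the growth kinase TOR and mus81 a DNA repair nuclease. Of these 5 genes, 2 lie on the same chromosome arm as aop in RefSeq. No difference of aop between genotypes was called, and this likeness is a description over arrays that share their processing. None of the 5 was called for the Pnt RNAi label, against the control (limma adjusted p of at least 0.744) or averaged over both backgrounds (at least 0.949). Their differences for the Aop RNAi label are not reported here.

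The other genes of the pathway were taken from 5 lists of receptors, ligands, intracellular components, inhibitors and nuclear factors, which matched 67 probe sets. Not one of the 67 was called in any comparison, beside 0.0266% to 0.783% of all probe sets. At an unadjusted p under 0.05, between 0 of 67 (TFAM o/e, Pnt RNAi against TFAM o/e, beside 4.6% of all probe sets) and 8 of 67 (Pnt RNAi against the control, beside 7.24%) passed. Ras85D and rl, the genes of Ras and of the ERK kinase Rolled, had no probe set matched by name and were not analysed here. Among the 8 receptor tyrosine kinases beside Egfr, the smallest p in Pnt RNAi against the control was that of tor (log2 fold change 1.90, limma adjusted p = 0.655), a signal of 3.19 in the control. Among the 18 probe sets of ligands and their processing the smallest p was that of bnl, the FGF Branchless, in Aop RNAi against the control (1.81, SE 0.52, limma adjusted p = 0.396). That probe set lay between 2.93 and 5.65 over the 18 arrays, near background, and the other probe sets of bnl averaged 4.45 and 4.16 in the control and 4.59 and 4.20 in Aop RNAi.

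Among the 17 probe sets of inhibitors and GTPase activating proteins, Mkp3, the phosphatase that removes phosphate from ERK, had the smallest p against the control in 5 of 5 genotypes. In the probe set with this p it was 8.45, 8.56 and 7.51 in the control, and 9.13, 9.09 and 8.94 in Pnt RNAi. It was 9.17, 9.23 and 8.91 in TFAM o/e, Pnt RNAi and 9.46, 8.73 and 8.62 in TFAM o/e. The control array of 7.51 was the lowest of the 18, and it was replicate 3, which was also lowest for pnt. The differences from the control were 0.88 in Pnt RNAi (SE 0.26, limma adjusted p = 0.317), 0.93 in TFAM o/e, Pnt RNAi (adjusted p = 0.21) and 0.76 in TFAM o/e (adjusted p = 0.623), and none passed. The second probe set of Mkp3 was 9.29, 9.46 and 9.45 in the control and 9.64, 9.54 and 9.44 in Pnt RNAi, so the probe sets of this gene disagreed on the size of the difference.

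Among the 13 probe sets of adaptors, Ras proteins and MAPK components, the smallest p in Aop RNAi against the control was that of Cbl, a ubiquitin ligase that down-regulates receptors (0.54, SE 0.18, limma adjusted p = 0.531). That probe set averaged 10.36 in the control, the lowest genotype, and 10.65 to 10.90 in the others, so its difference was not particular to the Aop RNAi label. The second probe set of Cbl averaged 8.22 in the control and 8.21 in Aop RNAi, so the probe sets of Cbl disagreed. Among the 11 probe sets of other ETS factors and repressors the smallest p was that of sina, whose product degrades a repressor of photoreceptor fate. It was found in Pnt RNAi against the control (0.33, SE 0.12, limma adjusted p = 0.507). The control was also the lowest genotype for sina, at 11.16 against 11.29 to 11.49 in the others. The medians of the 67 probe sets were 0.08 in Pnt RNAi, 0.08 in Aop RNAi and -0.01 in TFAM o/e against the control, beside -0.01, 0.02 and -0.03 over all probe sets.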

How the data were processed

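The authors processed the arrays with MAS5 in the Transcriptome Analysis Console and deposited log2 signals, used here as deposited. The 183 control probe sets were dropped, and the remaining 18769 of 18952 were all tested. Gene symbols came from the platform table, updated through Entrez identifiers in RefSeq, except pnt, named from the study's tables of changed genes. One model with 6 genotype means was fitted to all 18 arrays in R 4.3.3 by limma 3.58.1 (intensity trend, moderated test, Benjamini-Hochberg adjustment over all probe sets per comparison, threshold 0.05); intervals are 95% intervals. The scripts were tested on simulated data.

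All measured members are named, with the probe sets most like pnt (y among them) and aop, TFAM as a label check, and the smallest p of each other list. The neighbours of pnt, both Mkp3 probe sets and the covariates were added after values were seen. The members and lists were chosen with earlier results of these data known. Whether replicate numbers pair arrays was checked with correlations of deviations over 8582 probe sets: all 3 were above 0.1 between TFAM o/e, Pnt RNAi and either the control (0.171, 0.268 and 0.233) or TFAM o/e (0.335, 0.177 and 0.429), and in no other pair of groups compared. This pairing comes from the data, not the labels. The fit was repeated with median centring or quantile normalization, with probe sets of mean log2 6 or more, with a floor of 32 on the signal, without the trend, on the compared arrays alone, with the replicate block, with the unpaired test of the methods and without each array. Plots used matplotlib 3.10.9 (Python 3.11.15).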

Additional observations from a re-analysis of the deposited data

How the results depend on the processing

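The counts of members called were the same in 273 repeats under other settings and differed in 15. In Pnt RNAi against the control the 1 member called, pnt, became 0 with no intensity trend, with only the arrays compared, with the test of the methods, without the 2 arrays of highest fat body signal and with the fat body level as a covariate, and the count was 0 to 1 on leaving out each array. In the comparison of TFAM o/e, Pnt RNAi with the control and in that with TFAM o/e, 0 became 1 with quantile normalization and with the replicate block, and in the latter also with the ring gland level as a covariate. In the test over the 6 genotypes, 1 became 0 without the 2 arrays of highest fat body signal. The cause of these changes was not tested. On leaving out each array the counts of the other comparisons did not change. The 4 differences of pnt for the Pnt RNAi label and its averaged difference for TFAM o/e kept their sign in the repeats, and its other differences were not repeated. The difference of aop, near 0, turned in 11 of its repeats. With median centring it was -0.013 in Aop RNAi against the control, -0.027 in TFAM o/e, Aop RNAi against TFAM o/e and -0.02 averaged; with the ring gland level as a covariate it was -0.0007 in the second of these. On leaving out each array it ranged from -0.082 to 0.098, from -0.128 to 0.087 and from -0.051 to 0.057 in these 3. The replicate block changed no other call of a member. Each measured gene had 1 matched probe set, so other probe sets could not be tried. The 4720 probe sets with no symbol and the 402 with several were not searched for further ones. Probe sets near or under log2 5 carry little signal over background, and with 3 arrays per genotype a member such as csw, with a standard error of 0.31, allowed only large differences to pass.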
